A study of Mus musculus with 6 samples.

Results

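The CD300 family is a set of cell surface receptors of the immunoglobulin superfamily that myeloid cells carry, with one member of the blood vessel lining. The 6 receptors described here are Cd300lf, Cd300a, Cd300lb, Cd300ld, Cd300e and Cd300lg, taken as the rows of the count table that carry these symbols. All 6 were among the 15458 rows of the table, and all 6 passed the filter on low counts. They were chosen by their family name with the difference between KC_Epo and KC_EV in these libraries already known, so that difference is described below without a test. Tests are given for genes outside the 6.

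Kupffer cells, macrophages that live in the liver's blood sinuses, were sorted by flow cytometry from C57BL/6 mice at day 18 after implantation of Hepa1-6 cells, a mouse hepatoma line. In the KC_Epo group the implanted cells overexpressed erythropoietin (Hepa1-6_EpoOE), the hormone that drives red cell formation. In the KC_EV group they held an empty vector (Hepa1-6_EV). Each group had 3 libraries, and the labels give the genotype of both as wild type and no age of the mice. The overexpression was placed in the tumour cells and not in the sorted cells. Every mouse carried a tumour, and no mouse without one is part of the comparison. The labels number the mice but do not say whether a library is a single animal, so p-values here measure only the spread between the libraries. The comparison asks how Kupffer cell transcripts differ when the tumour makes erythropoietin.

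CD300 receptors work as pairs of opposite sign that sense lipids, among them phosphatidylserine, phosphatidylethanolamine and ceramide, on dying cells and in membranes. Inhibitory members such as Cd300a and Cd300lf carry tyrosine motifs in a long tail that recruit phosphatases such as Ptpn6 (SHP-1). Activating members such as Cd300lb have a short tail and signal through adaptors such as Tyrobp (DAP12) or Fcer1g, which engage the kinase Syk. Cd300lg, also called nepmucin, is the exception in the family, a mucin-like adhesion protein of endothelial cells.

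On mouse chromosome 11 the myeloid members lie in one cluster, in the order Cd300a, Cd300lb, Cd300c, Cd300ld, Cd300c2, Cd300ld4, Cd300ld2, Cd300ld5, Cd300ld3, Cd300e, Rab37 and Cd300lf. Cd300lg lies elsewhere on the same chromosome, between Mpp3 and Mpp2. In the GENCODE M21 annotation (GRCm38) no exon of these CD300 genes overlapped another gene. The sequences upstream of 3 cluster genes are shown because transcripts of Cd300lf and Cd300lb were higher in KC_Epo while those of Cd300e, in the same cluster, were lower. They are RefSeq promoter windows of build GRCm38.p6, trimmed where an annotated exon begins, 5′ to 3′ on the gene's strand, which is the minus strand for all 3. Capitals mark the motif matches described next. The windows are chr11:115133993-115134242 for Cd300lf, chr11:114934387-114934621 for Cd300lb and chr11:115062178-115062289 for Cd300e.
Cd300lf: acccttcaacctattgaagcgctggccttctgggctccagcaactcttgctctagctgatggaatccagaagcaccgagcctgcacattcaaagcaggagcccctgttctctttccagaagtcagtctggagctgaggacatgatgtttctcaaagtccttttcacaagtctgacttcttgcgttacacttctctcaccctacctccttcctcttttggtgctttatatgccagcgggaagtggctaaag
Cd300lb: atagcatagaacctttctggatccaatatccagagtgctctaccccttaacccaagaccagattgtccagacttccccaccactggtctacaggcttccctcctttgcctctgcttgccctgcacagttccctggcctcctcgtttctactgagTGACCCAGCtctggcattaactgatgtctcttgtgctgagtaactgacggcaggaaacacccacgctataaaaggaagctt
Cd300e: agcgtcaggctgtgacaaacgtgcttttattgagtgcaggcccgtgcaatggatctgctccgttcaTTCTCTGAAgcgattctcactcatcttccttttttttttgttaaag
RefSeq windows were found for 5 of the 6 genes. Motifs were searched on both strands in the 250 bases upstream of the annotated start, by letters chosen after the data were seen. The capitals in Cd300lb match TGACNNNGC, the antioxidant response element, at -96 to -88, and 10.2% of 32851 mouse promoter windows of that length hold a match. Those in Cd300e match TTCNNNGAA, the STAT element, at -184 to -176, which 7.02% of windows hold. The Cd300e window also held AGGAAGT, an ETS element of the kind that PU.1 binds, at -137, which lies in an annotated GENCODE exon and outside the stretch shown. The RefSeq start of Cd300e is not the GENCODE start, and of its 250 upstream bases 138 lie in GENCODE exons, so its positions depend on the start used. Cd300ld held 2 matches to that element, one of them at -142, and 7.69% of all windows hold it. Cd300a held TTGCNNAA, a C/EBP element, at -214 to -207, against 9.56% of all windows. In Cd300lf none of these letters was found, nor CACGTG, an E-box that 6.02% of windows hold. A match is a string of letters and not a measured binding site.

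Depth was 23201076 to 33280754 counts in KC_Epo libraries and 29327625 to 32199405 in KC_EV libraries. Epo itself had 29, 44 and 21 counts in KC_Epo 1 to 3, against 0 in every KC_EV library. Kupffer cell markers were high throughout, with summed levels of 47524 to 52030 CPM (read counts relative to the library's total, scaled with TMM factors) in KC_Epo and 29574 to 32327 CPM in KC_EV. Of the 14 markers 12 were higher and Adgre1 (F4/80) was lower by the edgeR quasi-likelihood test. Erythroid markers were higher in KC_Epo, 7 of 7 tested (summed level 606 to 1109 CPM, against 33.5 to 43.1 CPM in KC_EV), as were 7 of 12 hepatocyte markers (5572 to 19468 CPM, against 2459 to 3039 CPM). In sorted bulk samples a change in the number of cells of a type cannot be told apart from a change in RNA per cell. Of 13120 genes tested 2219 were called higher and 2015 lower in KC_Epo at an adjusted p threshold of 0.05. Scaling bears on that balance. The higher calls made up 52.4% with TMM factors and 40.6% with upper-quartile factors. Scaled by library sizes only they made up 24.8%, and the median log2 fold change of all genes moved to -0.16.

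Within the family, transcripts of 4 receptors were higher in KC_Epo (Cd300lf, Cd300lb, Cd300a and Cd300ld) and those of Cd300e and Cd300lg were lower. Cd300lf was 2.23-fold higher and Cd300lg was at 0.272 of its level in KC_EV, the largest difference in each direction among the 6. For all 6 genes the TMM-scaled values of the groups did not overlap. Of all genes tested 48.3% did not overlap, 24.1% being higher and 24.2% lower in KC_Epo, and with library sizes only Cd300ld overlapped and the other 5 did not. Directions held for all 6 under every other scaling, filter, tool and left-out library that was run. They did not hold for Cd300a and Cd300ld set against the summed counts of Kupffer cell markers, as described below.

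**Figure D1:**
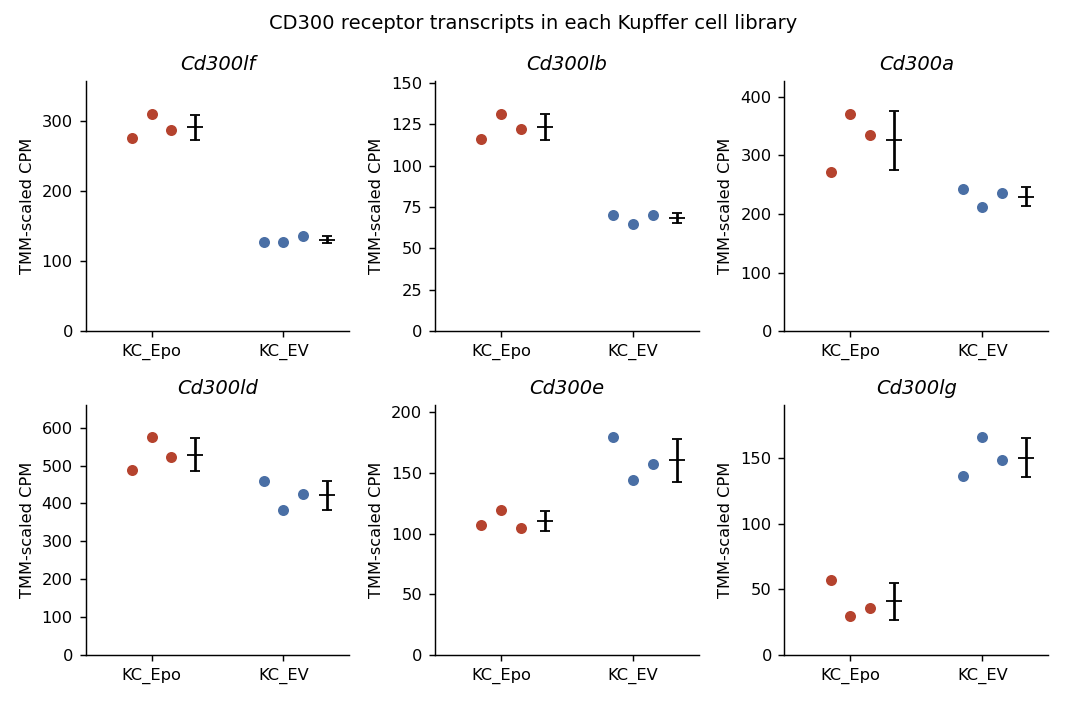
Levels of the 6 CD300 receptors in each library, in TMM-scaled CPM on linear axes that start at 0, with KC_Epo left of KC_EV; points are libraries and bars are the group mean with its SD over 3 libraries. Cd300lf sits between 276 and 311 CPM in KC_Epo and at 128 to 136 CPM in KC_EV, and Cd300lg at 29.9 to 56.9 CPM in KC_Epo and 137 to 166 CPM in KC_EV.

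The inhibitory receptors come first. Cd300lf (CLM-1), which binds phosphatidylserine and ceramide and in mice also serves as the receptor of murine norovirus, had 276, 311 and 288 CPM in KC_Epo 1 to 3, against 128, 128 and 136 CPM in KC_EV 1 to 3. Every KC_Epo library lay above every KC_EV library by a wide margin, and the libraries of each group lay close together. The mean was 291 ± 17.9 CPM in KC_Epo and 131 ± 5.07 CPM in KC_EV (SD, n = 3 each). That is a log2 fold change of 1.16 ± 0.07 (SE), from 1.12 to 1.20 with any one library left out, and the raw counts behind it ran from 3990 to 9659 per library.

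Cd300a (MAIR-I, CLM-8), which binds phosphatidylserine and phosphatidylethanolamine and restrains mast cells and macrophages in mice, had 272, 371 and 334 CPM in KC_Epo 1 to 3, against 242, 211 and 235 CPM in KC_EV 1 to 3. KC_Epo 1 was the lowest of its group and stood only a little above KC_EV 1. Means were 326 ± 50.1 CPM in KC_Epo and 229.6 ± 16.2 CPM in KC_EV, a log2 fold change of 0.50 ± 0.11 (SE). It was 0.62 without KC_Epo 1 and 0.41 without KC_Epo 2. With library sizes only it was 0.34. So both inhibitory receptors were higher, Cd300lf by more than Cd300a.

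Among the activating receptors, Cd300lb (CLM-7, LMIR5), which pairs with Tyrobp in mouse cells, had 116, 131 and 122 CPM in KC_Epo 1 to 3, against 70.0, 64.8 and 70.5 CPM in KC_EV 1 to 3. The groups were far apart, with little spread within either. Means were 123 ± 7.84 CPM in KC_Epo and 68.4 ± 3.17 CPM in KC_EV, a log2 fold change of 0.85 ± 0.07 (SE).

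Cd300ld (CLM-5, LMIR4), which pairs with Fcer1g in mouse myeloid cells, had 488, 575 and 523 CPM in KC_Epo 1 to 3, against 459, 382 and 424 CPM in KC_EV 1 to 3. Its groups stood close, and KC_Epo 1 lay near KC_EV 1. Means were 529 ± 43.4 CPM in KC_Epo and 422 ± 38.5 CPM in KC_EV, a log2 fold change of 0.33 ± 0.09 (SE). With library sizes only the log2 fold change was 0.17 and KC_Epo 1, at 468 CPM, lay below KC_EV 1, at 482 CPM. The size of the Cd300ld difference thus rested on the scaling. Neutrophils also carry this receptor, and of 10 tested neutrophil markers 0 were higher and 1 lower by the edgeR test. Their summed level was 278 to 341 CPM in KC_Epo and 268 to 526 CPM in KC_EV, with Ly6g at 0 in 3 of the 6 libraries. Most of that sum was Csf3r, at 269 CPM in KC_Epo and 250 CPM in KC_EV on average. Ngp had 6.68, 4.92 and 5.79 CPM in KC_Epo 1 to 3, against 0.694, 44.1 and 89.5 CPM in KC_EV 1 to 3. S100a8, S100a9, Camp and Ltf were likewise lowest in KC_EV 1 and highest in KC_EV 2 and 3, while Mmp8 was not. These genes were named after their values were seen, and none passed the test. The part of neutrophils in the Cd300ld level was not tested.

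Cd300e (CLM-2), an activating receptor known mainly from human monocytes, went the other way. Its levels were 107, 119.7 and 104 CPM in KC_Epo 1 to 3, against 179, 144 and 158 CPM in KC_EV 1 to 3. All 3 KC_Epo libraries lay below all 3 KC_EV libraries. Means were 110.2 ± 8.31 CPM in KC_Epo and 160.3 ± 17.8 CPM in KC_EV, a log2 fold change of -0.54 ± 0.09 (SE).

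Monocyte markers did not show one direction in the same libraries. Of 15 monocyte markers 3 were higher, among them Plac8 and Vcan, and 3 lower (Ccr2, F13a1 and Spn) by the edgeR test, and no marker of the list was at 0 in all libraries. Their summed level was 1702 to 1882 CPM in KC_Epo and 1604 to 1743 CPM in KC_EV. Most of that sum was Nr4a1, Gngt2 and Treml4, which averaged 467, 394 and 269 CPM in KC_EV and did not pass the test. Ccr2 averaged 37.0 CPM there and Ly6c2 14.4 CPM. Of the genes that mark patrolling monocytes, which move along vessel walls, Ace and Cx3cr1 did not pass the test, while Spn (CD43) fell by 0.82 on the log2 scale (SE 0.17, edgeR adjusted p = 0.00367). Cx3cr1 averaged 7.73 ± 1.10 CPM in KC_Epo and 9.51 ± 1.73 CPM in KC_EV (SD, n = 3 each; edgeR adjusted p = 0.231). Of 12 tested dendritic cell markers 1 was higher (Bst2) and 6 lower. Their summed level was 684 to 699.9 CPM in KC_Epo and 573 to 655 CPM in KC_EV. Most of that sum was Bst2 and Batf3, which averaged 401 and 168 CPM in KC_Epo and 307 and 140 CPM in KC_EV. The 6 lower markers were Xcr1, Flt3, Zbtb46, Cd209a, Itgae and Mgl2. In KC_EV they averaged from 3.92 CPM (Itgae) to 39.9 CPM (Zbtb46), so the sum hardly shows them. Of 5 tested mast cell and basophil markers 0 were higher and 4 lower, with a summed level of 33.5 to 64.5 CPM in KC_Epo and 95.5 to 110.5 CPM in KC_EV, and Mcpt4 was at 0 in every KC_Epo library. Most of the mast cell and basophil sum came from Kit, Hdc and Gata2, which averaged 69.9, 20.4 and 11.1 CPM in KC_EV. Cma1, also called lower, averaged only 0.441 CPM there. Cpa3, Mcpt4, Tpsb2, Ms4a2, Fcer1a and Prss34 did not pass the filter, so these values do not show that mast cells or basophils were present. The part of monocytes, dendritic cells, mast cells or basophils in the Cd300e difference was not tested.

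Cd300lg, the endothelial member, had 56.9, 29.9 and 35.7 CPM in KC_Epo 1 to 3, against 137, 166 and 149 CPM in KC_EV 1 to 3. On the fold scale this was the widest gap among the 6, and KC_Epo 1 was the highest of its group. Means were 40.8 ± 14.2 CPM in KC_Epo and 150.4 ± 14.8 CPM in KC_EV, a log2 fold change of -1.88 ± 0.28 (SE), from -2.20 to -1.68 with any one library left out. Endothelial markers were lower in the same libraries. Of the 15 listed 11 were lower and 0 higher by the edgeR test, and none was at 0 in all libraries. Their summed level was 2596, 1633 and 2023 CPM in KC_Epo 1 to 3, against 4471, 5393 and 4990 CPM in KC_EV 1 to 3. The libraries stood in one order for Cd300lg and for this sum, with KC_Epo 2 lowest and KC_EV 2 highest.

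Per library the ratio of Cd300lg counts to the summed counts of the 15 endothelial markers was 0.0219, 0.0183 and 0.0177 in KC_Epo 1 to 3, against 0.0305, 0.0308 and 0.0298 in KC_EV 1 to 3. The ratio was thus lower in each KC_Epo library. Its mean was 0.635 of that in KC_EV, while the level of Cd300lg itself was 0.272 of that in KC_EV. Single markers ran from Ehd3 at 0.229 to Plvap at 0.929 of KC_EV. Stab2, the marker with the highest level, was at 0.831, so the ratio depends on the markers summed. Some markers of the list fell as far as Cd300lg, among them Kdr, a receptor for vascular growth factor, at -1.88 ± 0.27 on the log2 scale (SE, edgeR adjusted p = 0.00672) and Ehd3 at -2.12 ± 0.27 (adjusted p = 0.00483). Pecam1, which averaged 203 ± 7.85 CPM in KC_Epo and 228 ± 10.0 CPM in KC_EV (SD, n = 3 each), did not pass (adjusted p = 0.082). Ehd3, Plvap and Pecam1 were named after their values were seen. The part of endothelial RNA in the Cd300lg difference was not tested.

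**Figure D2:**
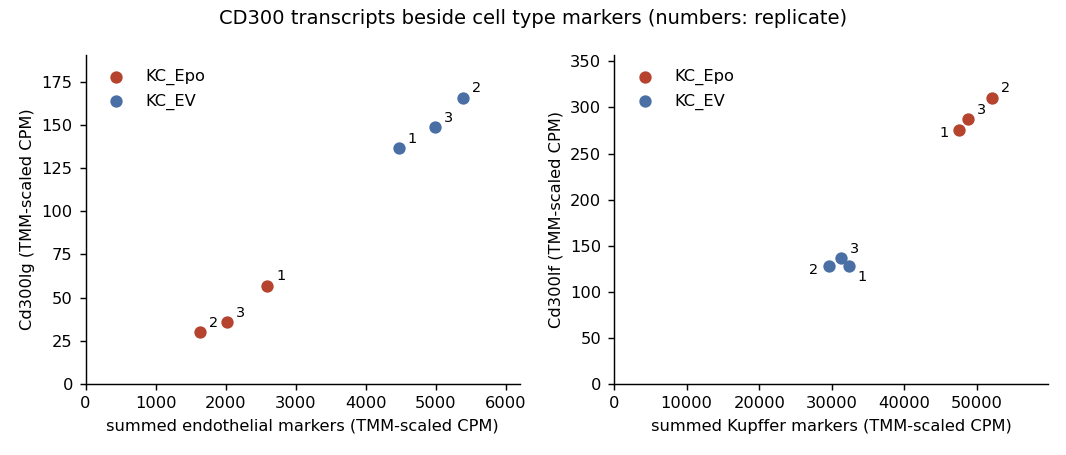
Left, the level of Cd300lg (TMM-scaled CPM) against the summed level of 15 endothelial markers; right, that of Cd300lf against the summed level of 14 Kupffer markers; each point is a library with its replicate number. KC_Epo libraries lie low on both axes at left (1633 to 2596 CPM of endothelial markers, against 4471 to 5393 CPM in KC_EV) and high on both axes at right.

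Because Kupffer cell markers were higher in KC_Epo as well, each receptor was set against their sum within a library. Cd300lf counts were 0.00580, 0.00597 and 0.00589 of the counts of the 14 Kupffer markers in KC_Epo 1 to 3, against 0.00395, 0.00431 and 0.00436 in KC_EV 1 to 3. The ratio was higher in every KC_Epo library, 1.40 times on the means, and for Cd300lb it was 1.13 times. For the other 4 it was lower in KC_Epo, at 0.889 of KC_EV for Cd300a, 0.787 for Cd300ld, 0.432 for Cd300e and 0.172 for Cd300lg. Cd300a and Cd300ld thus changed direction when read against this sum, and Cd300lf and Cd300lb did not. For Cd300a the ratio in KC_Epo 2 (0.00713) lay close to that in KC_EV 2 (0.00714). Clec4f, Cd5l and Marco had the highest levels in the sum. Single markers ran from Adgre1 at 0.608-fold to Cd163 at 2.16-fold, beside 1.42 for Cd300a and 1.25 for Cd300ld. The direction for a receptor inside that range thus depends on the markers taken. The part of Kupffer cell number in the receptor levels was not tested.

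Ratios between receptors of one library need no scaling. There were 2.58, 2.60 and 2.76 Cd300lf counts per Cd300e count in KC_Epo 1 to 3, against 0.712, 0.886 and 0.865 in KC_EV 1 to 3. Every KC_Epo library held more reads of Cd300lf than of Cd300e, and every KC_EV library held fewer. The mean ratio was 2.65 ± 0.0983 in KC_Epo and 0.821 ± 0.0951 in KC_EV (SD, n = 3 each), 3.22 times higher in KC_Epo. The ratio of the activating pair Cd300lb to Cd300e was 1.09, 1.10 and 1.17 in KC_Epo 1 to 3, against 0.391, 0.450 and 0.447 in KC_EV 1 to 3. It was higher in every KC_Epo library. Read counts follow exon length, so these ratios show a shift between the groups and not which gene had the higher level; per kilobase of exon Cd300e stood above Cd300lb in every library of both groups.

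Cd300lf and Cd300lb stayed closer to each other. Their ratio was 2.38, 2.36 and 2.36 in KC_Epo 1 to 3, against 1.82, 1.97 and 1.93 in KC_EV 1 to 3. It was nearly constant among KC_Epo libraries and 1.24 times higher there than in KC_EV. The ratio of Cd300ld to Cd300c2, its neighbour in the cluster, was 1.60, 1.47 and 1.43 in KC_Epo 1 to 3 and 1.56, 1.33 and 1.44 in KC_EV 1 to 3, so that the groups overlapped.

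**Figure D3:**
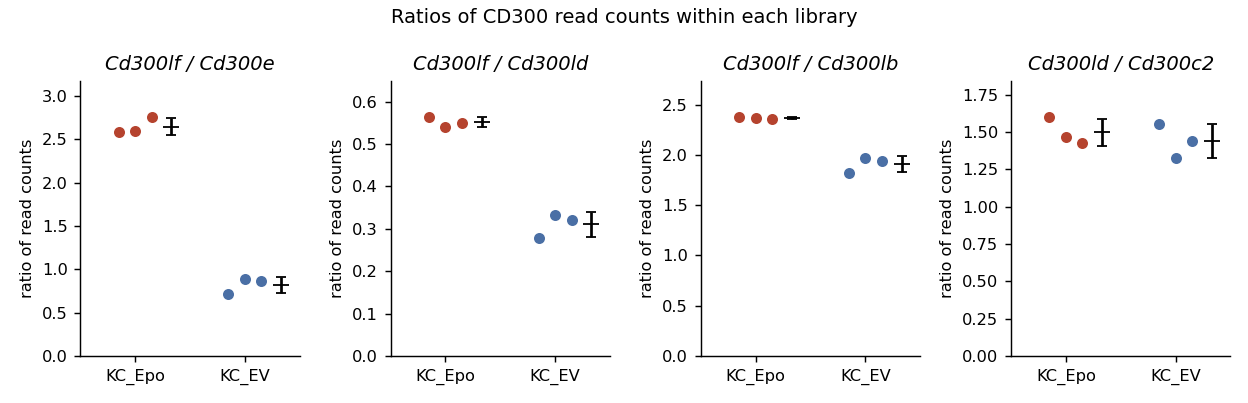
Ratios of raw counts within each library, on linear axes that start at 0, with KC_Epo left of KC_EV; points are libraries and bars are the mean with its SD over 3 libraries. The ratio of Cd300lf to Cd300e is 2.58 to 2.76 in KC_Epo and 0.712 to 0.886 in KC_EV, that of Cd300lf to Cd300ld 0.541 to 0.564 in KC_Epo and 0.278 to 0.334 in KC_EV, and that of Cd300ld to Cd300c2 overlaps between the groups.

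The 12 CD300 genes of the table together held 0.156, 0.180 and 0.168% of all counts in KC_Epo 1 to 3, against 0.159, 0.148 and 0.155% in KC_EV 1 to 3. These shares are of raw library totals, and on that scale the groups overlapped. TMM factors were 0.934 to 0.959 in KC_Epo and 1.05 to 1.07 in KC_EV, so the overlap depends on leaving them out. The make-up of the family, which needs no scaling, differed. Cd300lf made up 17.0, 16.1 and 16.2% of the family's counts in KC_Epo 1 to 3, against 8.43, 9.19 and 9.27% in KC_EV 1 to 3. Cd300lg made up 3.51, 1.55 and 2.01% in KC_Epo 1 to 3, against 9.02, 12.0 and 10.1% in KC_EV 1 to 3. Cd300ld held the largest share in every library, 29.5 to 30.1% in KC_Epo and 27.5 to 30.4% in KC_EV, with no separation of the groups.

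Levels of different genes were compared per kilobase of exon in GENCODE M21. On that scale Cd300ld was the highest of the 6 receptors in both groups, at 199.9 ± 16.4 CPM per kb in KC_Epo and 159.6 ± 14.5 in KC_EV. In KC_Epo it was followed by Cd300a (68.7 ± 10.6), Cd300lf (56.6 ± 3.48), Cd300e (52.8 ± 3.98), Cd300lb (42.2 ± 2.69) and Cd300lg (14.9 ± 5.20). Cd300a, Cd300lf and Cd300e overlapped with their neighbours in this order. In KC_EV the order after Cd300ld was Cd300e (76.8 ± 8.53), Cd300lg (55.0 ± 5.43), Cd300a (48.5 ± 3.43), Cd300lf (25.3 ± 0.984) and Cd300lb (23.5 ± 1.09), with overlap between Cd300lg and Cd300a. Cd300e thus stood below Cd300a and Cd300lf in KC_Epo and above both in KC_EV, and Cd300lg was the lowest of the 6 in KC_Epo and above 3 of them in KC_EV.

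Of 8 other CD300 genes listed 6 were in the table and 4 were tested, of which 1 was called higher and 0 lower. Of all genes tested 32.3% were called, 16.9% being higher and 15.4% lower in KC_Epo. Cd300c2 (MAIR-II), an activating receptor that pairs with Tyrobp in mice, had 305, 392 and 366 CPM in KC_Epo 1 to 3, against 295, 289 and 294 CPM in KC_EV 1 to 3. KC_Epo 1 lay close to the KC_EV libraries and the other KC_Epo libraries above them. Its log2 fold change was 0.27 ± 0.09 (SE, edgeR adjusted p = 0.0337). That call was lost with upper-quartile factors (adjusted p = 0.0888), with library sizes only (0.294) and with a replicate block (0.06745). It was also lost without KC_Epo 2, KC_Epo 3 or any one KC_EV library (0.0751 to 0.124). Per kilobase of exon Cd300c2 stood above all 6 receptors, at 278 ± 34.9 CPM per kb in KC_Epo and 229.5 ± 2.76 in KC_EV.

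The remaining family genes were near the limit of detection. Cd300c averaged 1.93 ± 0.557 CPM in KC_Epo and 1.79 ± 0.251 CPM in KC_EV (SD, n = 3 each; edgeR adjusted p = 0.827). Cd300ld3 reached at most 1.36 CPM in any library and Cd300ld5 at most 0.708 CPM, and neither passed (adjusted p = 0.717 and 0.502). Cd300ld2, with 7 counts over KC_Epo and 27 over KC_EV, and Cd300ld4, with 1 and 19, did not pass the filter. In GENCODE M21 82.1% of the 50-base stretches of Cd300ld3, 93.8% of Cd300ld4, 100% of Cd300ld5 and 31.0% of Cd300ld2 also occur in another gene, so their single values are uncertain. Of the 6 receptors the share was highest for Cd300ld (3.89%) and Cd300a (3.45%) and 0 for Cd300e and Cd300lb.

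**Figure D4:**
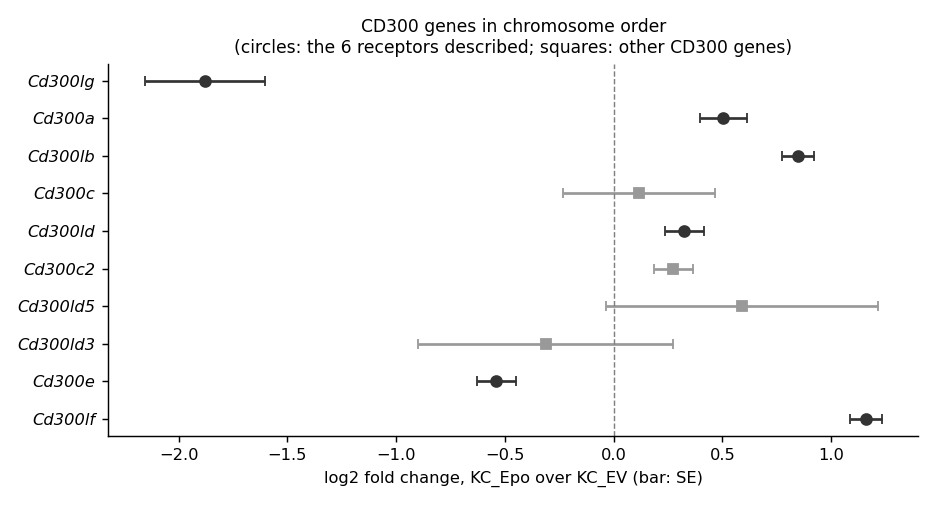
Log2 fold changes of KC_Epo over KC_EV with their SE (edgeR, TMM) for the 10 CD300 genes that passed the filter, top to bottom in their order on chromosome 11; circles are the 6 receptors, squares the other CD300 genes, and positive values mean higher in KC_Epo. Cd300e, at -0.54, lies left of 0 next to Cd300lf, at 1.16, and Cd300lg, at -1.88, lies farthest left.

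The adaptors that carry activating CD300 signals did not pass the test. Tyrobp had 656, 949 and 809 CPM in KC_Epo 1 to 3, against 751, 692 and 776 CPM in KC_EV 1 to 3. KC_Epo 1 was the lowest of all 6 libraries and KC_Epo 2 the highest, and the groups overlapped. The log2 fold change was 0.12 ± 0.12 (SE, edgeR adjusted p = 0.478), and 0.25 without KC_Epo 1 (adjusted p = 0.0264). Fcer1g averaged 1241 ± 97.0 CPM in KC_Epo and 1285 ± 90.9 CPM in KC_EV (adjusted p = 0.689), and with library sizes only it was called lower (-0.21, adjusted p = 0.0487). Hcst (DAP10), which carries a motif for phosphoinositide 3-kinase, averaged 24.5 ± 2.24 CPM in KC_Epo and 20.8 ± 2.14 CPM in KC_EV (adjusted p = 0.136). Per Tyrobp count, Cd300lf was 2.08 times, Cd300lb 1.68 times, Cd300a 1.31 times and Cd300ld 1.17 times as abundant in KC_Epo as in KC_EV. Cd300e was 0.643 times and Cd300lg 0.265 times as abundant. For Cd300ld the groups overlapped, at 0.745, 0.605 and 0.647 in KC_Epo 1 to 3 and 0.611, 0.553 and 0.546 in KC_EV 1 to 3.

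Of the 22 tested genes that comprise these 3 adaptors and the kinases and enzymes downstream of them, 2 were higher (Src and Card9) and 7 lower, with a median log2 fold change of 0.01, against -0.0045 over all genes. With library sizes only 1 was higher and 9 lower. Over all genes tested, with TMM factors, 16.9% were called higher and 15.4% lower. Pik3r5, a regulatory subunit of phosphoinositide 3-kinase gamma, had 82.1, 90.1 and 85.9 CPM in KC_Epo 1 to 3, against 204, 183 and 207 CPM in KC_EV 1 to 3. The KC_Epo libraries lay well below the others, and the gene fell by 1.20 on the log2 scale (SE 0.08, edgeR adjusted p = 5.96e-07). Src, a tyrosine kinase, had 26.8, 31.4 and 30.5 CPM in KC_Epo 1 to 3, against 15.5, 17.7 and 15.4 CPM in KC_EV 1 to 3. It rose by 0.86 ± 0.11 (SE, adjusted p = 0.000107). Syk, the kinase that binds phosphorylated adaptors, had 520, 491 and 503 CPM in KC_Epo 1 to 3, against 661, 611 and 650 CPM in KC_EV 1 to 3. All KC_Epo libraries lay below the KC_EV libraries, and it fell by 0.34 (SE 0.07, adjusted p = 0.00285). Malt1, a protease that acts with Card9 and Bcl10, fell by 0.51 (SE 0.09, adjusted p = 0.00158), and Vav3, a guanine nucleotide exchange factor, by 0.84 (SE 0.16, adjusted p = 0.00213). The other 3 that fell were Fyn, Vav1 and Lat2.

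The next list held 13 phosphatases, adaptors and other regulators of signalling, not all of them bound by inhibitory motifs. Of these 3 were higher (Inpp5d, Pag1 and Inppl1) and 1 lower (Ptprc), beside 16.9% and 15.4% of all genes tested. The median of the list was -0.02 on the log2 scale. With upper-quartile factors 3 were higher and 3 lower, and with library sizes only 2 were higher and 4 lower. Inpp5d (SHIP-1), a lipid phosphatase, had 360, 385 and 379 CPM in KC_Epo 1 to 3, against 268, 303 and 295 CPM in KC_EV 1 to 3. The groups did not overlap, and it rose by 0.38 ± 0.07 on the log2 scale (SE, edgeR adjusted p = 0.00224). Pag1, which holds the kinase Csk at the membrane, rose by 0.45 ± 0.09 (adjusted p = 0.00341). Inppl1 (SHIP-2) rose by 0.28 ± 0.07 (adjusted p = 0.00926), a call lost with library sizes only (adjusted p = 0.186).

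Ptpn6 (SHP-1), the phosphatase that the tails of Cd300a and Cd300lf recruit, had 535, 583 and 572 CPM in KC_Epo 1 to 3, against 643, 613 and 673 CPM in KC_EV 1 to 3. The groups did not overlap, yet it missed the threshold at -0.19 ± 0.07 (SE, edgeR adjusted p = 0.0626). It passed with upper-quartile factors (adjusted p = 0.0202), library sizes only (0.00186), a filter of 1 CPM (0.0453) and DESeq2 (0.0217). Ptpn11 (SHP-2) was at -0.02 ± 0.08 (adjusted p = 0.84). Ptprc (CD45) fell by 0.27 (SE 0.07, adjusted p = 0.0158), and without KC_Epo 3 it did not pass (adjusted p = 0.0934).

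Another list held genes linked to CD300 proteins, not all of them ligands or surface partners. Of its 8 tested genes 3 were higher and 0 lower, beside 16.9% and 15.4% of all genes. The median log2 fold change was 0.29. S100a8 and S100a9, also of this list, were at -2.07 and -1.84 and did not pass (edgeR adjusted p = 0.3135 and 0.3147). S100a8 ran from 0.631 to 40.4 CPM among KC_EV libraries. Csf2rb, the shared beta chain of the receptors for GM-CSF and interleukin 3, had 527, 603 and 564 CPM in KC_Epo 1 to 3, against 282, 276 and 290 CPM in KC_EV 1 to 3. Each KC_Epo library was far above KC_EV, and it rose by 1.00 ± 0.07 on the log2 scale (SE, edgeR adjusted p = 2.11e-06). Il4ra, the interleukin 4 receptor chain that Cd300lf binds in mouse macrophages, had 217, 205 and 200 CPM in KC_Epo 1 to 3, against 128, 140 and 149 CPM in KC_EV 1 to 3. There was no overlap, and it rose by 0.57 ± 0.08 (adjusted p = 0.000164). Il13ra1, the chain that joins Il4ra in macrophages, rose by 0.42 ± 0.07 (adjusted p = 0.00108). Timd4 (TIM-4), a phosphatidylserine receptor of Kupffer cells and a reported ligand of Cd300lb, had 690, 736 and 682 CPM in KC_Epo 1 to 3 and 695, 579 and 610 CPM in KC_EV 1 to 3. The groups overlapped, and it did not pass at 0.16 ± 0.08 (adjusted p = 0.152), but did without KC_EV 1 (0.24, adjusted p = 0.0349).

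Other lipid receptors, bridging proteins and cytosolic engulfment genes, taken as one list, were split. Of 23 tested genes 6 were higher and 9 lower (median -0.05 on the log2 scale), beside 16.9% and 15.4% of all genes. Mertk, a kinase receptor for dying cells, had 888, 831 and 861 CPM in KC_Epo 1 to 3, against 557, 545 and 548 CPM in KC_EV 1 to 3. It rose by 0.64 ± 0.07 (SE, edgeR adjusted p = 3.41e-05), Axl of the same family by 0.80 ± 0.09 (adjusted p = 6.16e-05) and Scarb1, a scavenger receptor, by 0.72 ± 0.10 (adjusted p = 0.000216). Cd93, which endothelial cells also carry, fell by 1.47 (SE 0.16, adjusted p = 0.000305). Of the 9 that were lower 3 were the cytosolic engulfment genes Elmo1, Dock1 and Rac2. Stab2, also among the 9, stands on the endothelial marker list as well and was at -0.27 (edgeR adjusted p = 0.0436). All of these were named after their values were seen. The part of endothelial RNA in the calls of this list was not tested. Mertk, Axl, Scarb1 and Cd93 were named for the smallest adjusted p of the list, so their directions do not describe the list.

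Of the other paired receptors of myeloid cells 37 of 40 listed were in the table under the listed symbols and 36 were tested. Lilrb4a, Lilrb4b and Siglecf were not found under these symbols. A row named Lilrb4 was in the table, with a mean of 438 CPM in KC_Epo and 354 CPM in KC_EV. It was not part of the list and is not in the counts that follow. Of these 9 were higher and 8 lower, with a median of 0.09 on the log2 scale, and with library sizes only 5 were higher and 10 lower. Without KC_EV 2 the count of calls was 10 and not 17. Over all genes tested in all libraries 16.9% were called higher and 15.4% lower. Trem2, an activating lipid receptor that signals through Tyrobp, had 68.3, 78.7 and 69.8 CPM in KC_Epo 1 to 3, against 25.4, 33.2 and 26.9 CPM in KC_EV 1 to 3. It rose by 1.34 ± 0.11 (SE, edgeR adjusted p = 4.13e-06), close in size to Cd300lf. Cd33, a sialic acid lectin, rose by 0.70 ± 0.09 (adjusted p = 0.000119). Trem3 had 2.96, 3.02 and 2.55 CPM in KC_Epo 1 to 3, against 7.63, 8.79 and 10.0 CPM in KC_EV 1 to 3, and fell by 1.63 (SE 0.20, adjusted p = 9.28e-05). Klra2, a lectin-like receptor, fell by 0.49 (SE 0.08, adjusted p = 0.00047). Paired receptors thus moved in both directions, as the CD300 genes did.

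**Figure D5:**
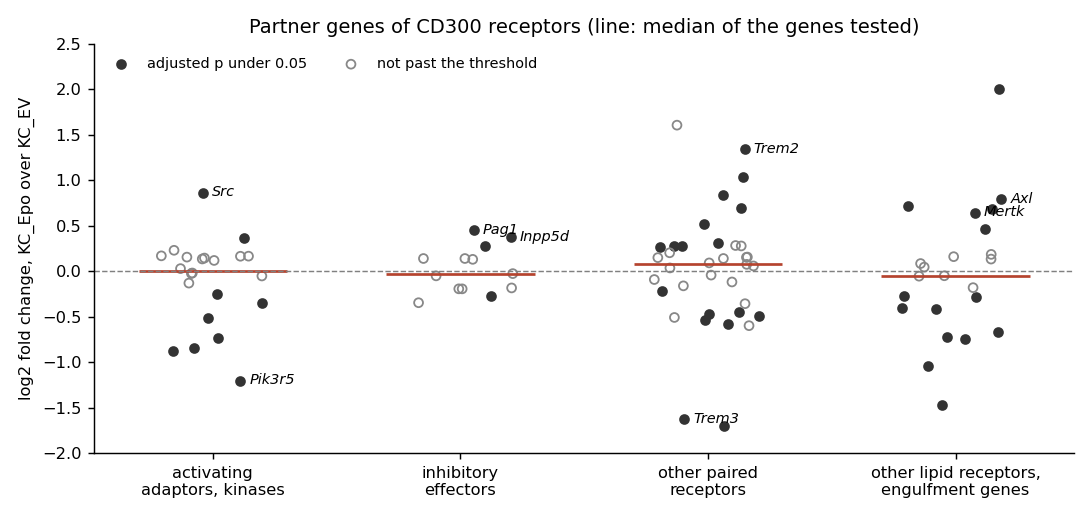
Log2 fold changes of KC_Epo over KC_EV for the tested genes of 4 lists; filled points passed an adjusted p of 0.05, open points did not, and the line is the median of each list. Each list holds genes on both sides of 0, from Pik3r5 at -1.20 to Src at 0.86 among activating adaptors and kinases that passed.

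Genes whose pattern over the 6 libraries lay nearest each receptor were ranked by Euclidean distance between centred log2 CPM values, as a description. Cd300lg had Kdr (distance 0.148), Bmp2 (0.171) and Col13a1 (0.175) nearest to it, and 98 genes were closer than 0.5. Nearest to Cd300lf were Relt (0.149), Ccl7 (0.160) and Stx3 (0.170), with 174 genes closer than 0.5. The number of genes within a fixed distance follows the size of a receptor's own difference, since most genes differ little, and does not show that a pattern is rare. Nearest to Cd300lb were Pkib, Sdc3 and Slc46a3 (635 genes within that distance), to Cd300e Vti1a, Prpf38a and Nrip1 (1109), to Cd300a Orai1, Fzd7 and Folr2 (1988) and to Cd300ld Bbx, Rtn3 and Lilrb4 (4374). Since the groups differ for all 6, nearness mostly says that a gene differs between the groups by a like amount. Ranked by Pearson correlation in place of distance, 2 of the 3 genes were shared for Cd300e, 1 for Cd300lb, 1 for Cd300ld and 0 for Cd300a, Cd300lf and Cd300lg.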

How the data were processed

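Messenger RNA was measured in 6 libraries, 3 of KC_Epo and 3 of KC_EV. Per the labels' protocols, the RNA was polyA RNA from RNeasy Plus kits and the library kit was Illumina's TruSeq kit for stranded mRNA. Per the submitters' processing notes the tools were STAR 2.7.3a, HTSeq 0.11.2, Bowtie2 2.5.1 and FastQC 0.11.8 and the build GRCm39; the way reads were assigned to genes is not given in the sources used here. Per gene symbol the authors deposited whole-number read counts, not normalized. 12 symbols stood on 2 rows, of which the row with the larger total was used under that name. No library was a copy of another of its group (chi-square of at least 6.03 per gene).

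The counts were tested with edgeR 4.0.16 in R 4.3.3 (TMM factors, filterByExpr, robust quasi-likelihood fit, two-sided test, no block), with Benjamini-Hochberg adjustment over 13120 genes and a threshold of 0.05. SEs of log2 fold changes follow from the F statistic, and levels are given as TMM-scaled CPM. The procedure was first tested on simulated data. The CD300 members and all gene lists were chosen with earlier results of these data known. Named genes were the 6 members, the other CD300 genes, Tyrobp, Fcer1g, Hcst, Syk, Ptpn6, Ptpn11, Inpp5d, Il4ra and Timd4, up to 4 genes per list by smallest adjusted p, and the 3 genes nearest in pattern to each member. Nearness used log2 CPM with a prior count of 2 among genes past the filter, with predicted genes and CD300 genes left out. Some listed genes are not reported here by name. Alternatives were RLE factors, upper-quartile factors, library sizes only, no filter, a filter of 1 CPM in 3 libraries, a fit without robust settings, a prior count of 0.5, a replicate block, DESeq2 1.42.0, limma-voom (limma 3.58.1) and each library left out. Exon lengths and shared stretches came from GENCODE M21 and promoters from RefSeq (GRCm38.p6), another build than the authors', so no coordinate was carried between them.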

Additional observations from a re-analysis of the deposited data

How the results depend on the processing

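Of 96 recomputed fold changes of the 6 receptors 92 kept their direction and size within the spread between libraries and 4 moved, with 0 reversed. All 4 came from the use of library sizes only, with log2 fold changes of 1.00 for Cd300lf, 0.69 for Cd300lb, 0.17 for Cd300ld and -0.70 for Cd300e, in place of 1.16, 0.85, 0.33 and -0.54. The median of all genes moved from -0.0045 to -0.16 under that setting by its construction. With any one library left out the values ran from 1.12 to 1.20 for Cd300lf, 0.80 to 0.90 for Cd300lb, 0.41 to 0.62 for Cd300a, 0.26 to 0.39 for Cd300ld, -0.61 to -0.45 for Cd300e and -2.20 to -1.68 for Cd300lg. The count of genes called ran from 2728 (without KC_Epo 3) to 4557 (without KC_Epo 1), and that of the paired receptor list from 10 (without KC_EV 2) to 20 (without KC_Epo 1). The cause of these shifts was not tested. With a replicate block 3358 genes were called, against 4234, and Cd300c2 was not among them (adjusted p = 0.0675). Libraries of the same number did not deviate together (correlations of -0.148 to -0.041). That gave no sign that the numbers pair the samples, but 3 libraries per group cannot exclude it. Among 448 recomputed values of single partner genes 17 changed their side of the threshold. The 3 libraries per group and the lack of cell counts limit what these levels can show.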
